A study of Sus scrofa with 8 samples.

Results

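The 81 cytosolic ribosomal protein genes were read from the gene annotation that served as the counting reference for single-cell libraries of pig tracheal submucosal glands (SMGs). They were the protein-coding genes whose name is RPL, RPS or RPLP, then digits, then at most 1 further letter with digits, and they made up 81 of 30390 genes and of 20679 protein-coding genes. Of the 81, 50 carried names of the large subunit and 31 of the small subunit. Each of 4 wild-type and 4 CFTR-/- newborn pigs gave 1 library, and CFTR-/- animals lack the chloride and bicarbonate channel that is mutated in cystic fibrosis. All 8 libraries shared this annotation, which holds coordinates on Sscrofa11.1 and no value per animal. Expression was therefore not analysed here, library depth is unknown, and the values below carry no replicate error and no test.

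Ribosomal proteins assemble with ribosomal RNA into the small subunit, which reads the messenger RNA, and the large subunit, which forms peptide bonds. Their messenger RNAs in vertebrates are short and abundant, and typically begin with a C followed by a run of pyrimidines, the terminal oligopyrimidine (TOP) motif through which mTOR signaling controls their translation. Introns of their genes are a known home of small nucleolar RNAs (snoRNAs), and snoRNAs of the box C/D class guide methylation of ribosomal RNA.

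The name rule found most of the ribosome, with a gap and a misplaced name. Of 76 core ribosomal protein names, 75 were present and RPL41 was not found under that name. The other 6 members were paralogs, namely RPL3L, RPL7L1, RPL10L, RPL22L1, RPL26L1 and RPS27L. The member named RPL18 did not look like its neighbors in the list. It lay at chr1:84378453-84379052 on the plus strand and spanned 600 bases, and its 5 exons were separated by gaps of 1 to 2 bases. Its coding bases held an in-frame stop codon in the genome, the only such case among the 81 members. A gene named RPL18_1, at chr6:53974353-53978681 on the minus strand, had 7 exons, a coding length of 564 bases and a 3′ UTR of 44 bases, and fell outside the rule because of its suffix. RefSeq calls this gene RPL18 too. All 81 members had the same exons and names in RefSeq, so none was among the models that the authors edited.

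Short coding sequences with introns characterized the members. The median coding length was 468 bases (interquartile range, 375 to 639), against 1218 bases (849 to 2010) over 20674 protein-coding genes with a coding model. The median number of exons was 5 (4 to 6), against 7 (3 to 13). The shortest coding sequences belonged to RPL39 with 153 bases, a small protein that lines the exit tunnel, RPS28 with 207 bases and RPL38 with 210 bases. The longest were RPL13A with 1500 bases, RPL4 with 1281 bases and RPL3L with 1269 bases. RPL13A also had the most exons, 14, and was followed by RPL3, RPL3L and RPL4 with 10 each. At the other end stood RPL10L with 1 exon, RPS29 with 2, and RPL39 and RPS15 with 3 each. RPL10L, known for its expression in testis, was the only member annotated with 1 exon, against 2086 of all 20674 genes. RPL18 was counted with 5 exons, although only gaps of 1 to 2 bases separated them. Mitochondrial ribosomal protein genes, 76 in number, had the same median of 5 exons but a median coding length of 616.5 bases.

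The value of RPL13A depended on which transcript stood for the gene. RPL13A, a large subunit protein that also takes part in translational silencing, had 14 coding transcripts, more than any other member. Both curated models had 8 exons, coding lengths of 612 and 609 bases and a 3′ UTR of 439 bases. They began 13021 bases inside the gene, which started farther upstream in predicted models. FLT3LG, the gene of a cytokine of blood progenitors, was listed as a synonym of RPL13A, and no gene in the annotation had the name FLT3LG. RPL28 with 7 was the only other member with more than 5 coding transcripts, so that 2 of 81 members passed this number, against 13.8% of all protein-coding genes. A total of 49 members had 1 coding transcript, against 51.1% of all genes.

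**Figure D1:**
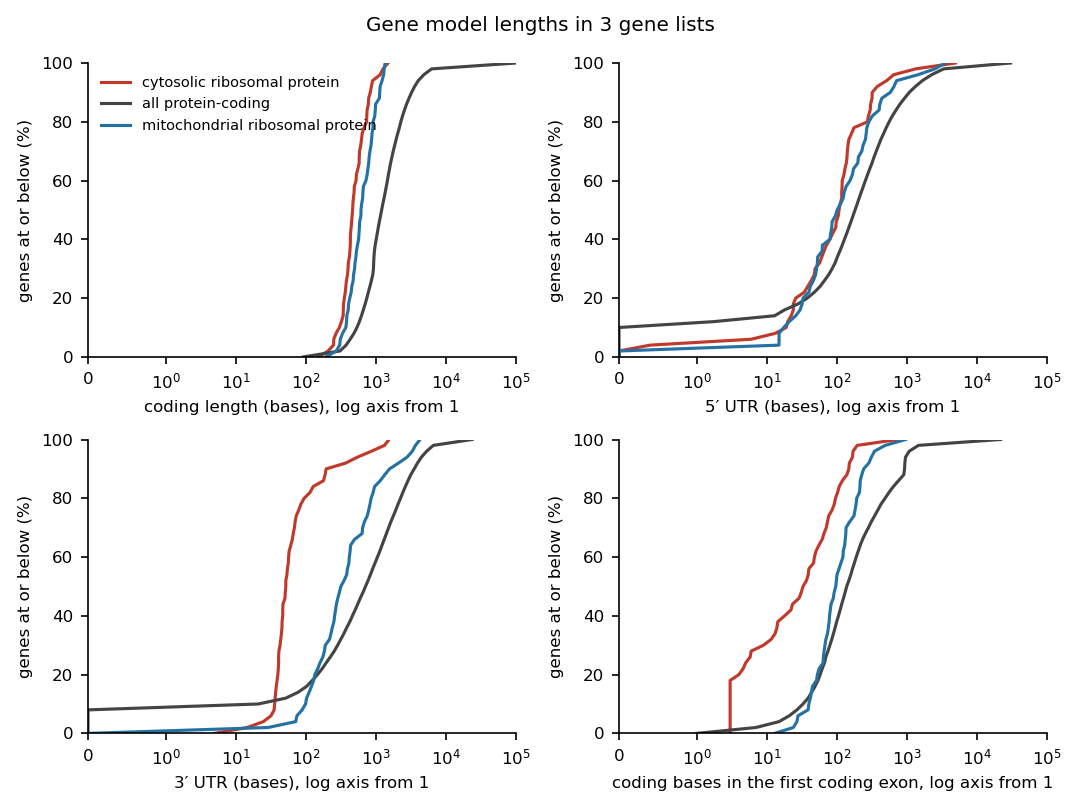
Cumulative share of genes (percent) by coding length, 5′ UTR, 3′ UTR and coding bases in the first coding exon (bases, log axes from 1) for cytosolic ribosomal protein genes (red), mitochondrial ribosomal protein genes (blue) and all protein-coding genes (gray). The red curve lies far to the left for the 3′ UTR (median 52 against 715 bases over all genes) and rises at 3 bases for the first coding exon.

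In many members an intron followed the start codon directly. In 16 of 81 members the first coding exon held 3 coding bases, the start codon itself, whereas 0.934% of all protein-coding genes had this layout. They were 10 genes of the large subunit (RPL3, RPL4, RPL5, RPL7A, RPL14, RPL27A, RPL35, RPL37, RPL38 and RPL39) and 6 of the small subunit (RPS4X, RPS18, RPS20, RPS24, RPS25 and RPS26). In RPL14 and RPL38 the start codon lay in exon 2, so that this was not the first intron of the gene. RPL3 and RPL4 belong to the core of the large subunit, and RPL5 binds 5S ribosomal RNA. With up to 6 coding bases the count was 24 of 81, against 1.63% of all genes. None of the 76 mitochondrial ribosomal protein genes fell in either class, and 3 of 28 translation and ribosome assembly genes had 3 bases. The gene RPL18_1, outside the rule, had 3 as well. Over all members the median was 33 coding bases in the first coding exon, against 139 over all genes.

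The 5′ UTRs ranged widely. Their median was 108 bases (interquartile range, 41 to 162), against 183 bases over all genes. RPS2, a small subunit protein at the messenger RNA entry channel, had 4985 bases, RPL34 had 1551 and RPL27A had 1214. By contrast, RPL11, RPL18 and RPS15 were among the members with 0 bases, and the models of RPL11 and RPS15 did not begin with a methionine codon in the genome. Members with a curated transcript, 43 of 81 against 19.3% of all genes, had a median 5′ UTR of 48 bases, and the 38 without one had 139.5 bases. At the median the members with predicted models only had the longer 5′ UTRs.

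At the annotated start, 17 of 81 members were TOP-like, meaning a C at the first base and pyrimidines at the next 4, against 2.89% of all protein-coding genes. The curated starts of 7 members are shown because they make the motif visible. RPL13A was TOP-like at its curated start but not in the transcript that stood for the gene, so it is outside the 17. Each run is 30 bases of Sscrofa11.1, with 10 bases before the annotated start, and the capitals mark the pyrimidine run that begins at the start.
RPL10, chrX:124927239-124927268, plus strand: gtgggagcgcCTCTTTTCCTTCggcgcggt
RPL13A, chr6:54564783-54564812, plus strand: ccaagagttcCTTCTTTCCCaggcagctgc
RPL23, chr12:23279955-23279984, plus strand: ttcttacttcCTTTTCgtccttgtcgggcc
RPL7, chr4:62602420-62602449, plus strand: gcgctaacttCCTCTTTCCCggctggaacc
RPS20, chr4:75762199-75762228, plus strand: tcacgccttcCTCTTTgaagaagacgcagc
RPS26, chr5:21431646-21431675, plus strand: tggccacttcCTCTCTCgcgtcttcgcttc
RPS3A, chr8:77893721-77893750, minus strand: atacttccgcCCTTTTggctctctgtgcag
The run was 12 bases long in RPL10, a protein added late in large subunit assembly, 10 bases in RPL13A and RPL7, and 6 bases in RPL23, RPS20 and RPS3A. Of the members with a curated transcript, 16 of 43 had a TOP-like start at the curated model. Of the 38 without one, 4 had a TOP-like start. A curated transcript was more frequent in the members (53.1%) than over all genes (19.3%). The TOP-like share of curated genes in general is not given here. Allowing any coding transcript gave 24 members, against 6.25% of all genes, and allowing the motif to begin within 5 bases of the start on either side gave 27 members, against 17.9%. Most members thus showed no TOP-like start in these models.

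The 3′ UTRs of the members were short. Their median was 52 bases (interquartile range, 41 to 78), against 715 bases (210.25 to 1864) over all protein-coding genes and 318 bases over mitochondrial ribosomal protein genes. The 3′ UTR was under 100 bases in 65 of 81 members, against 15.8% of all genes. No member had a 3′ UTR of 0, against 8.88% of all genes and 2.42% of genes whose name does not begin with LOC. RPS23, a protein of the decoding center, had 5 bases, RPL18 had 8 and RPS19, which is mutated in Diamond-Blackfan anemia, had 19. The 7 members above 300 bases were RPL15 with 1551 bases, RPL7L1 with 1340, RPS29 with 1335, RPL9 with 917, RPS4X with 675, RPS10 with 518 and RPL13A with 439. These long ends stood apart from the rest of the list. Some of these ends depended on the model. In RPS29 a transcript with 3 exons and 168 coding bases had a 3′ UTR of 89 bases. In the transcript with the longest coding sequence, the 3′ UTR was 29 bases in RPL13A and 890 bases in RPS25, which had 196 bases in the transcript that ends farthest 3′. Among the members that the study lists with host defense genes, RPL30 with 52 bases lay at the median, RPL39 with 186 bases above it and RPS19 below it.

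**Figure D2:**
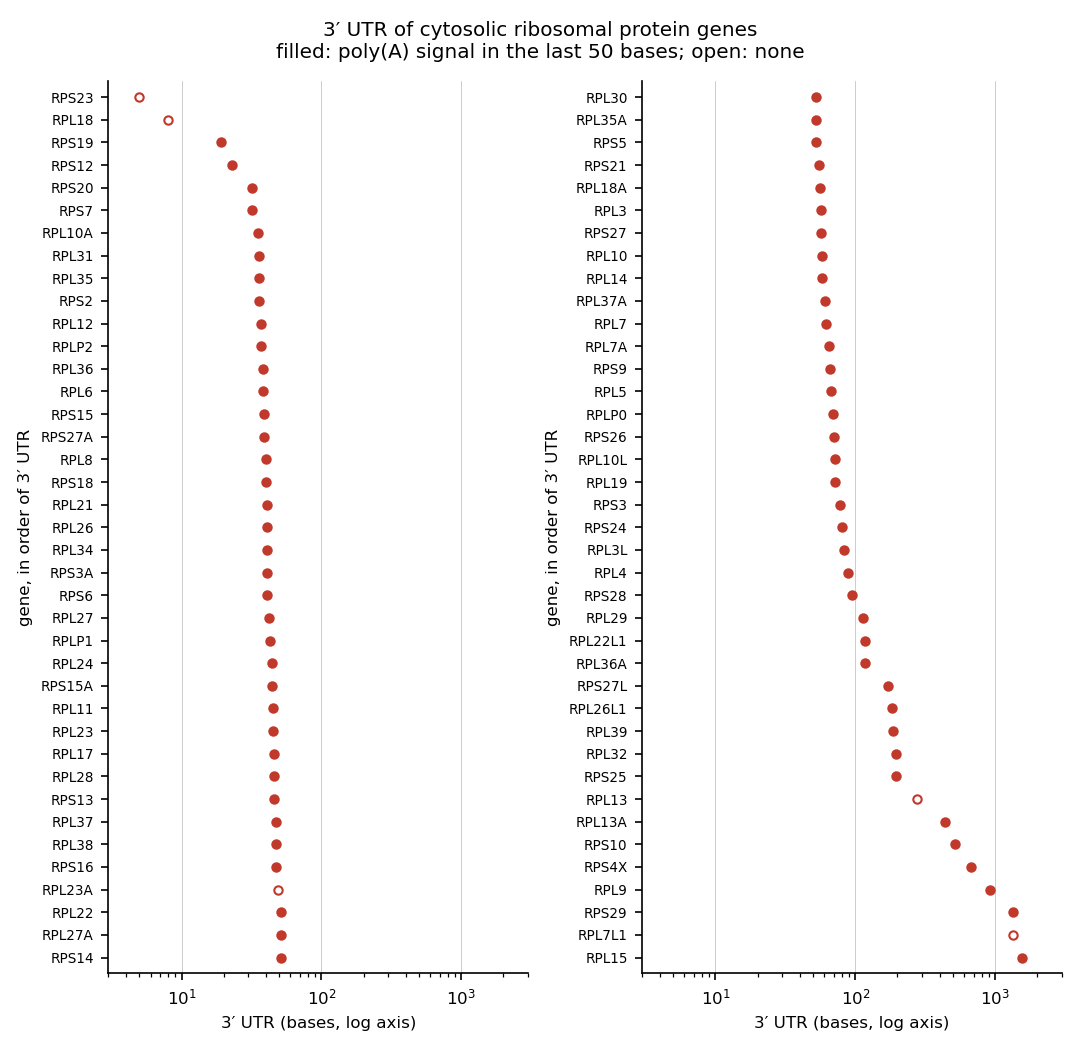
The 3′ UTR (bases, log axis) of 78 of the 81 members in order of length, filled where AATAAA or ATTAAA occurs in the last 50 bases and open where neither does. Most members lie between 30 and 100 bases, RPS23 and RPL18 lie lowest and RPL15 lies highest.

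Almost all members ended at a poly(A) signal. The hexamer AATAAA or ATTAAA occurred in the last 50 transcript bases of 76 of 81 members, against 60.9% of all protein-coding genes. Among genes whose name does not begin with LOC the share was 69.9%, and 55 of 76 mitochondrial ribosomal protein genes had it. Translation and ribosome assembly genes, with 26 of 28, were like the members. The 5 members without the hexamer were RPL7L1, RPL13, RPL18, RPL23A and RPS23. The last 30 bases of 5 members with the signal and of RPS23 show how close the signal lies to the end, with the hexamer in capitals and the strand of the gene.
RPLP0, chr14:40219196-40219225, minus strand: aaacaaagaAATAAAggcttacttctaaaa
RPS2, chr3:40003081-40003110, plus strand: acgagaaaAATAAAatgaatgaagccggtt
RPS12, chr1:30920804-30920833, minus strand: gaaataatcaAATAAAaagactggctccta
RPS19, chr6:50003198-50003227, minus strand: agctgggttAATAAActgcctcgttcataa
RPL15, chr13:10719930-10719959, plus strand: gtatataagAATAAAtgtcttacactaaaa
RPS23, chr2:90679038-90679067, minus strand: caagaaggagagaccaagatcataagtttt
The first base of the signal lay a median of 23.5 bases before the end in the 76 members that held it. Since 3′ libraries sample reads near this end, the composition of the last 300 exon bases was also counted. A median of 82.7% of these bases was coding in the members, against 0% over all genes, and coding bases filled over 50% of them in 68 of 81 members and in 20.2% of all genes.

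No gene of the type snoRNA was held by the deposited annotation or by RefSeq as used here, so 0 of 81 members had an annotated snoRNA gene in an intron. The introns were therefore searched for the layout of a box C/D snoRNA, a choice made after the annotation had been read. The layout was a C box (ATGATGA or GTGATGA), a D box (CTGA) whose first base lay 45 to 110 bases after that of the C box, and flanks of 4 pairing bases, each up to 2 bases from its box. It occurred 19 times in 13 of 81 members (16.0%) on the strand of the gene, against 7.10% of all protein-coding genes. By this share of genes, translation and ribosome assembly genes were near the members, with a layout in 4 of 28 (14.3%). Introns of a member summed to a median of 2843 bases and those of all genes to 14442. On the reverse strand of the members' introns the layout occurred 1 time.

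Per intron base, the members held many more layouts than other genes. The rate was 63.7 per megabase (Mb) of intron in the members and 1.92 in all other protein-coding genes, where the reverse strand gave 1.88. With 5 pairing bases the members kept 18 of the 19 layouts, all in the same 13 genes, and had 0 on the reverse strand, against 2.40% of all genes with a layout. Mitochondrial ribosomal protein genes had 2.45 per Mb, near the level of other genes. Translation and ribosome assembly genes had 13.5 per Mb, with layouts in NCL (nucleolin), NOP56 and NOP58 (core proteins of box C/D particles) and RACK1 (a scaffold on the small subunit). A layout is a match of letters and was not tested as a transcript. The search required exact boxes and a perfect stem, so a gene without a layout may still hold a snoRNA.

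**Figure D3:**
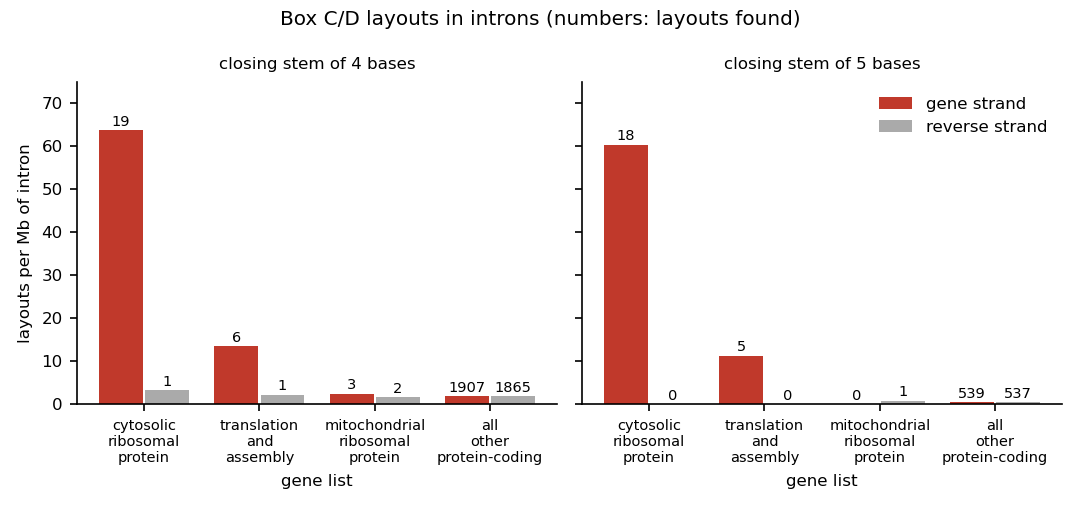
Box C/D layouts per Mb of intron on the strand of the gene (red) and on the reverse strand (gray) in 4 gene lists, with closing stems of 4 (left) and 5 bases (right), and the number of layouts above each bar. Cytosolic ribosomal protein genes have 63.7 and 60.3 per Mb on their own strand, while the 2 strands are alike in all other protein-coding genes.

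The hosts were 8 genes of the large subunit (RPL3, RPL4, RPL13, RPL13A, RPL14, RPL17, RPL21 and RPL23A) and 5 of the small subunit, among them RPS3, RPS3A, RPS12 and RPS13. Of the hosts, 6 held 2 layouts, among them RPL4, RPL13A, RPL17 and RPS12. Both ends of the layouts in RPL4 and RPL13A are shown because these genes carry them in separate introns. Introns were numbered in the transcript that stood for the gene, which in RPL13A was a predicted model with 14 exons. The curated models of RPL13A had 8 exons, so their introns are numbered otherwise. Each run is 30 bases from or to the end of the closing stem on the strand of the gene, and the capitals mark the C box or the D box.
RPL4 intron 2, C box end: agcaATGATGAaattccactccgttggtcc
RPL4 intron 2, D box end: ccacatgattttcctggatgttCTGAtgct
RPL4 intron 4, C box end: caaaATGATGAgattccacttcattggtcc
RPL4 intron 4, D box end: aaacatgatatttgtgagaattCTGAtttg
RPL13A intron 8, C box end: ggtcaGTGATGAgcaacaatcaccatcttt
RPL13A intron 8, D box end: gagatcaaccccatgcaccgctCTGAgacc
RPL13A intron 10, C box end: ggccaGTGATGActttcccacttgtgttcg
RPL13A intron 10, D box end: tgacttggacatgcactaccatCTGAggcc
In Sscrofa11.1 the RPL4 layouts lay at chr1:164479480-164479550 and chr1:164478280-164478350, and those of RPL13A at chr6:54566456-54566535 and chr6:54567162-54567238. RPL4 is on the minus strand and RPL13A is on the plus strand. The ends within 1 gene resembled each other in RPL4. Aligned over their whole length, the pair in RPL17 was identical at 87.9% of positions and that in RPL4 at 76.4%. The pairs in RPL13A (64.3%) and RPS12 (55.0%) were less alike. The boxes that the search required are part of these alignments, and no layouts of different genes are given for comparison.

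The layouts were short, within the spacing of boxes that the search allowed, and their place in the intron varied. They measured 63 to 91 bases with a median of 73, stems included. The D box ended a median of 111 bases before the 3′ splice site, from 25 bases in RPL14 to 1374 bases in RPS3, a protein at the messenger RNA entry. Some layouts lay nearer the 3′ splice site, as in RPL14, where 501 bases preceded the C box. Others lay nearer the 5′ splice site. In RPL17 intron 6, 50 bases preceded the C box and 584 followed the D box, and in RPL3 these were 58 and 234 bases. Intron 2 of RPL4 had 180 bases and held a layout of 71, and intron 10 of RPL13A had 198 bases and held a layout of 77.

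**Figure D4:**
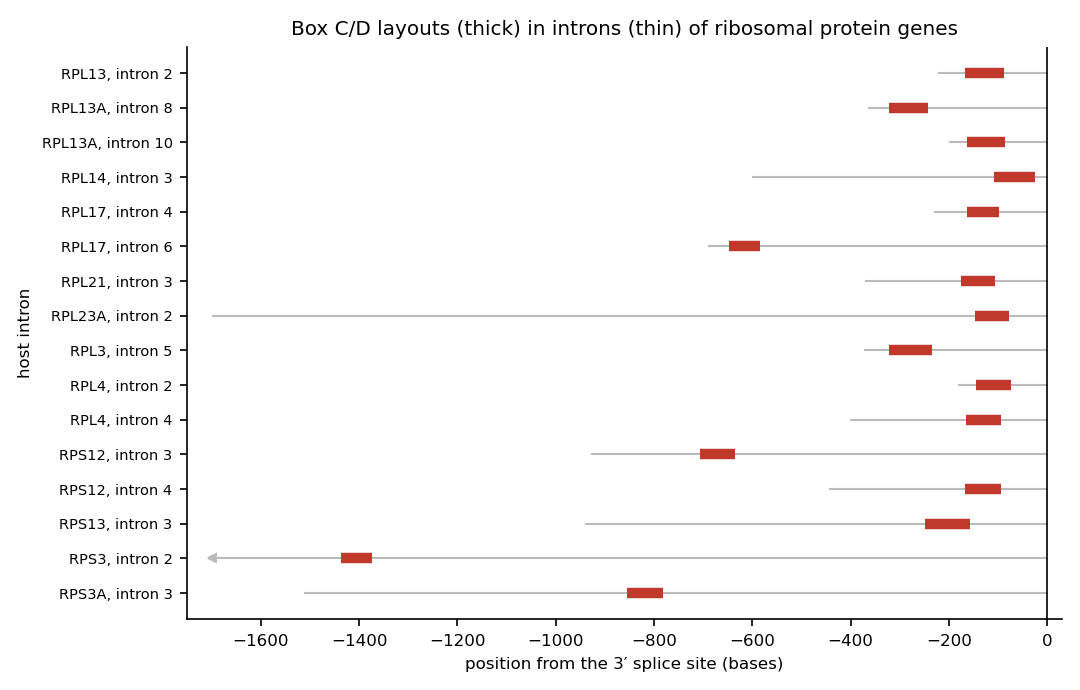
Position of each box C/D layout (thick) in its intron (thin), in bases from the 3′ splice site at 0, for 16 of the 19 layouts in 12 of the 13 genes, with an arrow where the intron runs past the left edge. Most layouts end within 250 bases of the splice site, and those of RPL17 intron 6, RPS12 intron 3, RPS3A and RPS3 lie farther upstream.

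Near-identical copies of the members elsewhere in the genome bear on how reads can be placed. Of all 98-base windows in the last 500 transcript bases, the share found base for base outside the gene had a median of 0% in the members and over all genes. At least 1 such window occurred in 20 of 81 members, against 10.7% of all protein-coding genes, a class that includes many unnamed gene copies. Among 16548 genes whose name does not begin with LOC the share was 2.24%. With 50-base windows the count was 56 of 81, against 18.7% of all genes, and the median share was 4.43%. Mitochondrial ribosomal protein genes had 2 of 76 and 13 of 76 at these window lengths.

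A few members carried most of this. The share of 98-base windows found elsewhere was 70.5% in RPS21, 49.1% in RPL36A, 31.7% in RPS23, 31.02% in RPL35A and 18.2% in RPL39. RPS21 had 1 such place, where LOC100518848 and TECPR2 are annotated. The place of RPL36A lay in NLN, and both places of RPL39 lay in the unnamed coding genes LOC100525679 and LOC100623540. Over all members the 98-base windows matched 25 places, of which 12 held an annotated pseudogene, 11 lay in a protein-coding gene and 2 held no gene. Pseudogenes were thus the most frequent annotation at these places. The annotation also held 36 protein-coding genes and 24 transcribed pseudogenes with LOC names whose product is called a ribosomal protein, and 16 and 18 of these had 1 exon.

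**Figure D5:**
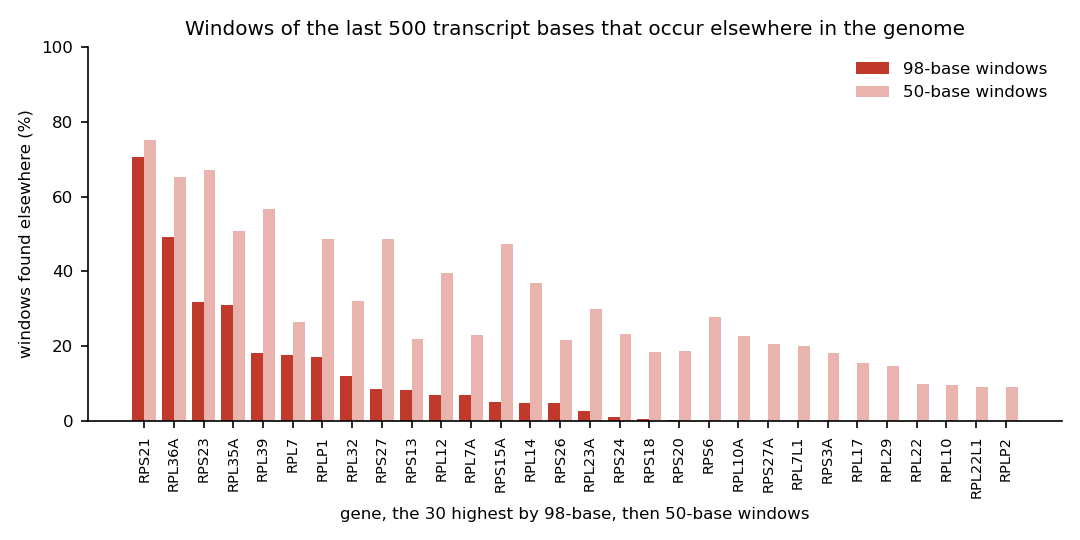
Share of windows (percent) in the last 500 transcript bases that occur base for base outside the gene, for the 30 plotted members with the highest shares, in windows of 98 (dark) and 50 bases (light). RPS21 is highest at 70.5%, and RPS6 and the genes to its right have none at 98 bases.

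Exon bases were not shared on the same strand. None of the 81 members shared exon bases with a gene on its own strand, against 3.36% of all protein-coding genes. RPS4X overlapped the pseudogene LOC100622164 on its own strand with 0 shared exon bases. On the opposite strand 12 of 81 members shared exon bases with another gene, near the 17.1% of all protein-coding genes. The most were 864 bases between RPS2 and RNF151, 502 between RPS25 and CCDC84, and 198 between RPL7A and MED22. The members RPL3L and RPS2 were close neighbors, 1796 bases apart on chromosome 3.

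The paralogs kept the exon number of the gene they are named after more often than its 3′ UTR. RPL26L1 was identical to RPL26 at 98.6% of aligned residues and had the same 4 exons, but a 3′ UTR of 182 against 41 bases. RPS27L was identical to RPS27 at 96.4%, again with 4 exons each, and its 3′ UTR was 172 against 57 bases. In these pairs the ends differed far more than the proteins. RPL3L, known from striated muscle, was identical to RPL3 at 73.1% with 10 exons in both and 3′ UTRs of 83 and 57 bases. RPL22L1 and RPL22 were identical at 70.3% (117 and 51 bases, 4 exons each), and RPL7L1 and RPL7 at 43.0% (1340 and 62 bases, 7 exons each). RPL10L was identical to RPL10 at 82.3% and differed in exons, 1 against 6. All 6 paralogs among the members thus had a longer 3′ UTR than the gene they are named after, whereas RPL36AL, outside the name rule, had 97 bases against 117 in RPL36A.

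The encoded proteins were rich in basic residues. Lysine and arginine made up a median of 21.6% of residues in 80 members, against an interquartile range of 9.06% to 13.1% over 20274 protein-coding genes, and medians of 15.2% in mitochondrial ribosomal proteins and 12.7% in translation and ribosome assembly proteins. RPL39 with 35.3%, RPL35 with 33.3% and RPL19 with 32.1% were highest. At the low end were the acidic stalk proteins that recruit translation factors, RPLP1 with 6.14%, RPLP0 with 10.1% and RPLP2 with 10.4%. These 3 were the lowest of the members.

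Ribosomal proteins outside the name rule had similar ends. RPSA (a small subunit protein also known as a laminin receptor), FAU (made as a fusion to a ubiquitin-like protein) and RPL36AL had 3′ UTRs of 66, 48 and 97 bases. None of these 3 had a box C/D layout in an intron. In FAU 71.2% of 98-base windows occurred elsewhere, close to the value of RPS21.

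RPS2 and RPL13 were targets of the study's qPCR primers, which were placed on the models. The sequences are given 5′ to 3′.
RPS2 forward: attttcaaacgacgccgacc
RPS2 reverse: tactgcggcgctgctataaa
RPL13 forward: ctgaagccccacttccacaa
RPL13 reverse: cttgcgcctgcggatcttg
The RPS2 primers each matched 1 place in the genome and enclosed 157 bases at chr3:40000800-40000956. Both lay in exon 1 of 8, in the part annotated as 5′ UTR, and the reverse primer ended 207 bases before the start codon. The RPL13 forward primer lay in exon 2, in coding sequence, and occurred 3 times in the genome. The RPL13 reverse primer occurred 0 times in the genome as an unbroken run, since it spans the junction of exons 2 and 3 in the model with 6 exons, where the product was 84 bases. In the RPL13 model with 5 exons, which has the longest coding sequence, this primer had no exact match.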

How the data were processed

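SMG cells of 4 wild-type and 4 CFTR-/- newborn pigs went into 3′ single-cell libraries, 1 from each pig. The file analysed, deposited by the authors, holds other values than expression: start and end coordinates of genes, exons and coding segments on Sscrofa11.1, counted from 1. Per the file headers the authors started from NCBI Annotation Release 106 and added or elongated 3′ UTRs. The submitters' processing notes name Cell Ranger 3.0.2.

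Members, comparison lists and measures were chosen with earlier results of these data known. The coding transcript with the longest coding sequence stood for a gene, and the coding transcript that ends farthest 3′ gave its 3′ UTR. Named genes were the 3 at each end of exon number, coding length and both UTRs, paralogs, genes named in the study's primer and host defense lists, the 5 with the most windows found elsewhere, and models with unusual features; others were named after their values were seen. Sequences came from the RefSeq genome of the same build, and proteins were translated from it. Of 29 translation and ribosome assembly names, 28 were found. Paralogs were aligned with BLOSUM62 (gap penalties 11 and 1, Biopython 1.88). The scripts (Python 3.11.15, pysam 0.24.0) passed 27 of 27 checks on simulated gene models. No samples were compared, so there is no test and no p-value. Some genes and layouts are counted in the totals but not reported here one by one.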

Additional observations from a re-analysis of the deposited data

How the results depend on the processing

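Of 34 alternatives to 14 results, 32 stayed within 1.5 times the value given, but 8 of these bore on values of 0 (annotated snoRNA genes and exon bases shared on the same strand) and could not have moved. Of the 34, 31 had been planned and 3, on box C/D layouts, were added after seeing the data. TOP-like starts rose from 17 to 27 members when the motif could begin within 5 bases of the start, a looser definition. The median share of windows found elsewhere was 0% with 98-base windows and 4.43% with 50-base windows, a shorter match. The median 3′ UTR stayed between 51 and 52 bases, the median 5′ UTR between 80 and 108 bases and the count of members with a poly(A) signal between 68 and 76. No paired analysis was possible because none of the values belongs to a sample. Annotated models limit every length: a start or end that the annotation misplaces moves the UTRs and the motif counts with it.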
